A study of Mus musculus with 42 samples.

Results

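The genes described here are 42 mouse chaperone and protein-folding stress genes, taken by symbol from a count table of 43629 genes. They form 2 sets. The ER set has 22 members: the chaperones and folding enzymes Hspa5, Hsp90b1, Calr, Canx, Pdia3, Pdia4, Pdia6, P4hb, Dnajb9, Dnajb11, Dnajc3, Hyou1, Sdf2l1, Manf and Creld2, the degradation factors Herpud1, Sel1l, Syvn1 and Edem1, and the stress sensors and factors Xbp1, Atf6 and Ern1. The cytosolic and mitochondrial set has 20 members: Hspa8, Hspa1a, Hspa1b, Hsp90aa1, Hsp90ab1, Hsph1, Hspa4, Hspa9, Hspd1, Hspe1, Hspb1, Hspb8, Dnaja1, Dnajb1, Bag3, Hsf1, Stip1, Ahsa1, Cct2 and Tcp1.

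Genetically heterogeneous male mice of the UM-HET3 strain ate a compound in their chow for 1 month from 3 months of age and were sampled at 4 months. RNA was measured by CEL-seq, which reads transcripts with a poly(A) tail from their 3′ end; 30 libraries came from kidney and 12 from liver. The kidney groups were AS-703026, a MEK inhibitor (30 ppm), ascorbyl-palmitate, a lipophilic form of vitamin C (6.3 ppm), AZD8055, an mTOR kinase inhibitor (20 ppm), enzastaurin, a protein kinase C inhibitor (75 ppm), GDC-0941, a PI3 kinase inhibitor (50 ppm), and KU0063794, another mTOR kinase inhibitor (10 ppm), with 4 libraries each, and 6 libraries from mice on the unsupplemented diet. The liver groups were AS-703026, enzastaurin and GDC-0941 at the same doses, with 4 libraries each; control livers were not analysed here. The labels name no link between a kidney and a liver of the same animal and no batch, and nothing in them says that the replicates are more than separate samples, so a p-value here measures the spread between those samples.

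The ER set serves proteins that enter the secretory pathway. When unfolded protein collects in the ER, the sensors IRE1 (Ern1), ATF6 and PERK raise chaperones such as BiP (Hspa5), folding enzymes of the protein disulfide isomerase family and the machinery that sends misfolded protein out for degradation. The cytosolic counterpart is the heat shock response, in which HSF1 raises HSP70, HSP90, HSP110 and small heat shock proteins. Hepatocytes secrete most plasma proteins and are rich in rough ER, whereas kidney tubule cells secrete far less.

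The binding elements of these 2 responses can be read in the members' promoters. RefSeq promoter windows (GRCm38.p6, from 250 bases before to 50 bases after the start of the gene) were matched to 34 of the 42 members; Hyou1, Manf, Atf6, Hspa8, Hsp90aa1, Hsp90ab1, Hspa9 and Hsf1 had none. The ER stress element, written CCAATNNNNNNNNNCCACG and searched on both strands, was present in 8 of the 19 ER members with a window (Hspa5, Calr, Hsp90b1, Canx, Pdia6, Dnajc3, Creld2 and Syvn1), in 0 of 15 cytosolic and mitochondrial members, and in 37 of 27025 genes with a window (0.137%). The shorter second form, ATTGGNCCACG, was present in Herpud1 and Dnajb11 and in 12 of 27025 genes (0.0444%). A heat shock element of 3 alternating repeats, GAANNTTCNNGAA, was present in Hspd1, Hspe1 and Hsph1, in 0 of 19 ER members, and in 179 of 27025 genes (0.662%). A match is a description of the letters and not evidence of binding. The stretches below show these elements in capitals, 5′ to 3′ on the strand of the gene, because the results turn on several of these genes; Creld2 carries its element on the opposite strand, and the Hspe1 stretch lies between Hspe1 and Hspd1, which are transcribed away from each other and share it.
Hspa5, chr2:34772005-34772063, + strand: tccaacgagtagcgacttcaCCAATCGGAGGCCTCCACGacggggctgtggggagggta
Hsp90b1, chr10:86705618-86705676, - strand: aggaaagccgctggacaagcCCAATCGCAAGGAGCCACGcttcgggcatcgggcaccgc
Pdia6, chr12:17266471-17266529, + strand: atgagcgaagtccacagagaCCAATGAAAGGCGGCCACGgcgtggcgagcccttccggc
Dnajc3, chr14:118937807-118937865, + strand: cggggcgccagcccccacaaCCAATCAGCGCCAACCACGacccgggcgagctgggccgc
Creld2, chr15:88819500-88819558, + strand: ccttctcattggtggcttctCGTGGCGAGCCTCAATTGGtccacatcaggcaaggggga
Herpud1, chr8:94386357-94386407, + strand: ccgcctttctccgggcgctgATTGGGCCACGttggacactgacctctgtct
Hspe1, chr1:55088044-55088096, + strand: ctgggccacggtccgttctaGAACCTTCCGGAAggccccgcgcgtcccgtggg

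Levels are given as CPM, the counts of a gene scaled to a common library total, after scaling of the libraries within a tissue. They are not divided by transcript length, because a CEL-seq read marks 1 transcript end. In kidney the highest means belonged to Hsp90ab1, the constitutive cytosolic HSP90, at 989 ± 153 CPM (SD, n = 30), Hspe1, the mitochondrial co-chaperonin, at 412 ± 126 CPM, and Canx, the ER lectin chaperone calnexin, at 387 ± 59.97 CPM. The lowest kidney means belonged to Sdf2l1, an ER co-factor of BiP, at 3.61 ± 2.00 CPM, Hspb8, a small heat shock protein, at 4.02 ± 6.32 CPM, and Syvn1, the ubiquitin ligase HRD1, at 5.17 ± 2.28 CPM. In liver the highest means were all ER members: Pdia6 at 700.1 ± 173 CPM (SD, n = 12), P4hb at 573 ± 76.3 CPM and Hspa5 at 565 ± 258 CPM. The lowest liver means were Hspa1a, an inducible HSP70, at 2.17 ± 3.56 CPM, Bag3, its co-chaperone, at 6.94 ± 3.47 CPM, and Syvn1 at 6.96 ± 3.88 CPM. Cct2, a subunit of the cytosolic chaperonin, had a narrow range, with the highest library at 1.48 times the lowest in kidney and 1.30 times in liver, and Hspa8 a wide one, at 111 and 96.5 times. Of the neighbouring means just listed, Hsp90ab1 in kidney and Hspa1a in liver stand apart from the next by more than 1 SD, and the others do not.

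The labels and the tissues matched. A list of 6 kidney transcripts summed to between 13160 and 67310 CPM in the kidney libraries and to at most 133 CPM in the livers, and 8 hepatocyte transcripts summed to at most 4604 CPM in the kidneys and to between 59960 and 79920 CPM in the livers. Total counts ran between 863605 and 5691067 per kidney library and between 1084591 and 4361115 per liver library. AZD8055 kidney replicate 4 stood apart: 8 adipocyte transcripts, among them Ucp1 and Fabp4, summed to 41630 CPM there and to at most 2350 CPM in the other kidneys. AS-703026 kidney replicate 4 had 5634 CPM over 8 inner-medulla transcripts, against a median of 224 CPM over the kidneys. The difference was not confined to that library. This list summed to between 293.9 and 5634 CPM in the AS-703026 kidneys and to between 177.7 and 217.4 CPM in controls. All 6 of its genes that were tested were called higher with AS-703026 than in controls by edgeR. A group of satellite-like transcripts took 5% or more of the counts in 11 kidney libraries, unevenly over the groups. Their share was 0.287%, 29.0%, 5.97% and 16.6% with AS-703026, 0.0555% to 12.5% in controls and 0.035% to 2.67% with enzastaurin. Of 12 such transcripts tested, 0 were called with AS-703026 against control by edgeR. All 42 members passed the filter on low counts in kidney and in the fit across both tissues; in liver 41 passed, and Hspa1a did not.

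The 2 tissues were compared in the mice given AS-703026, enzastaurin or GDC-0941, 12 kidneys against 12 livers, on 1 scale for all 24 libraries. All 22 ER members were lower in kidney, with a median log2 fold change of -1.31, and the cytosolic and mitochondrial set split into 8 members that were higher in kidney, 8 that were lower and 4 that did not pass the test. Across all 12262 genes tested, 77.4% were called, 39.2% as higher and 38.2% as lower in kidney, and the median log2 fold change was 0.05. Calls here and throughout are an adjusted p below 0.05 in edgeR's quasi-likelihood test, adjusted by Benjamini-Hochberg over all genes tested. Fewer cells of a type and less RNA per cell cannot be told apart in bulk tissue.

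Hspa5, the central ER chaperone, ranged between 143 and 309 CPM with a median of 221 CPM in the 12 kidneys, against 452 to 1468 CPM with a median of 582 CPM in the 12 livers. The tissues did not overlap, and the log2 fold change was -1.67 ± 0.16 (SE, adjusted p = 5.82e-10, edgeR). Sdf2l1 had the widest difference of the ER set: its kidneys lay between 1.30 and 7.16 CPM and its livers between 35.1 and 131 CPM, a log2 fold change of -4.44 ± 0.28 (adjusted p = 1.2e-13, edgeR). Hyou1, the ER member of the HSP110 family, averaged 9.79 ± 4.15 CPM in kidney and 86.9 ± 34.9 CPM in liver (SD, n = 12 each), a log2 fold change of -3.21 ± 0.23. Manf, a secreted ER stress protein, averaged 52.7 ± 14.2 CPM in kidney and 365 ± 147 CPM in liver, a log2 fold change of -2.79 ± 0.16. Creld2 stood at -2.09 ± 0.22 without overlap, and Hsp90b1, the HSP90 of the ER, at -0.56 ± 0.13 with overlap.

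Among the disulfide isomerases the difference depended on the member. Pdia4 averaged 5.86 ± 2.41 CPM in kidney and 39.1 ± 9.36 CPM in liver, and Pdia6 averaged 201 ± 23.6 CPM in kidney and 879 ± 216 CPM in liver. Their log2 fold changes were -2.82 ± 0.18 and -2.12 ± 0.11, and neither gene's tissues overlapped. P4hb was lower by -1.24 ± 0.09 on the log2 scale, without overlap. Pdia3, which works with calreticulin and calnexin on glycoproteins, had the narrowest difference of the 4, -0.61 ± 0.11, with overlapping tissues, between 28.2 and 48.0 CPM in kidney and between 41.5 and 80.3 CPM in liver. The lectin chaperones themselves also differed in size: Calr stood at -1.34 ± 0.11 and Canx at -0.38 ± 0.09, the smallest difference of the ER set.

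The sensors and degradation factors were lower in kidney as well. Ern1, which encodes IRE1, averaged 12.7 ± 3.71 CPM in kidney and 52.9 ± 11.04 CPM in liver, a log2 fold change of -2.10 ± 0.14 without overlap. Its target Xbp1 stood at -0.70 ± 0.11 and Atf6 at -0.97 ± 0.09. Of the factors of ER-associated degradation, Herpud1 stood at -1.87 ± 0.16, Syvn1 at -1.29 ± 0.25, Edem1 at -1.18 ± 0.13 and Sel1l, the partner of Syvn1, at -0.54 ± 0.10. The J-proteins that serve BiP lay between: Dnajc3 at -1.43 ± 0.09, Dnajb11 at -1.12 ± 0.11 and Dnajb9 at -0.87 ± 0.13.

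**Figure D1:**
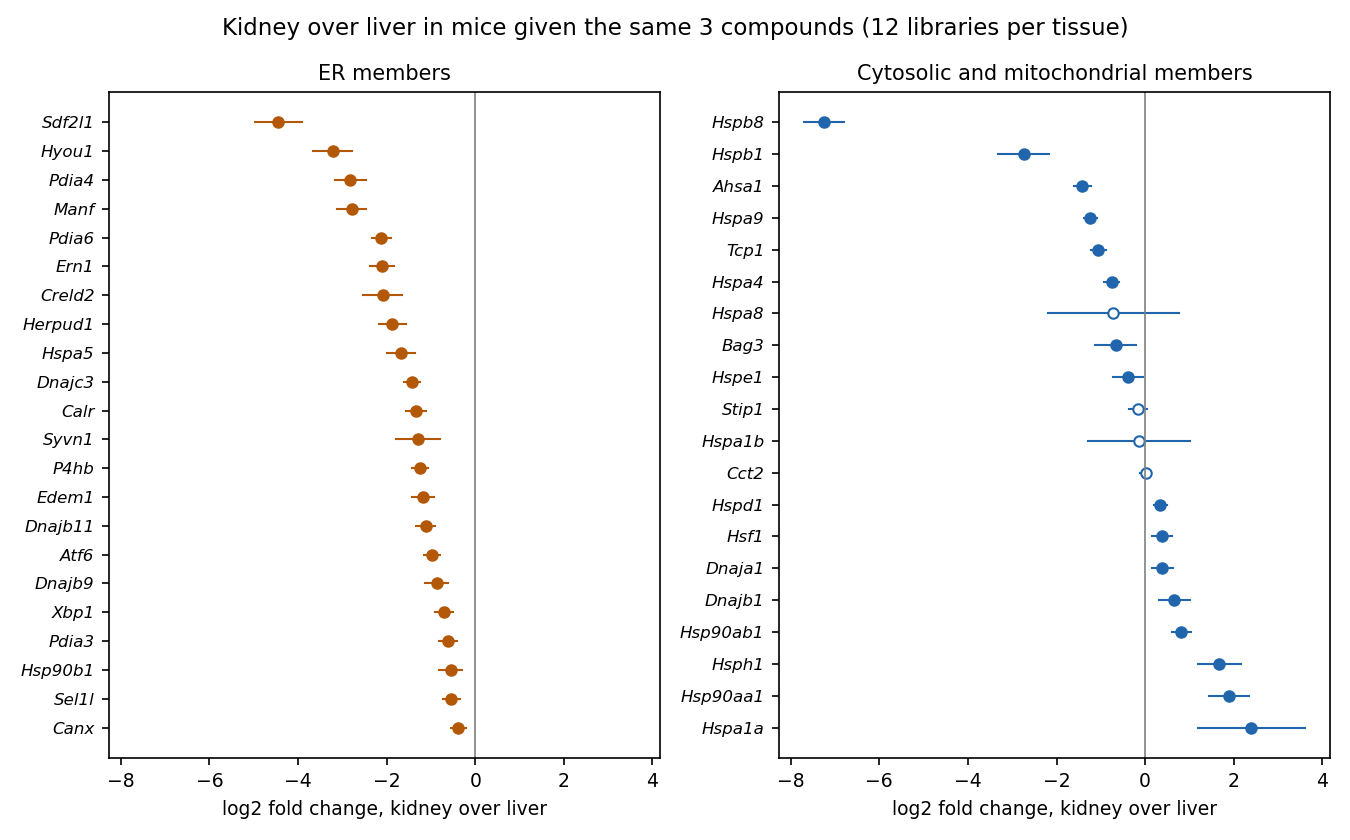
Log2 fold change of kidney over liver for each of the 42 members, with the 95% interval; filled points passed an adjusted p of 0.05 and open points did not. All 22 ER members lie left of 0, between -4.44 for Sdf2l1 and -0.38 for Canx, and the cytosolic and mitochondrial members lie on both sides, between -7.24 for Hspb8 and 2.40 for Hspa1a.

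Both cytosolic HSP90 genes and Hsph1 went the other way. Hsp90aa1, the stress-responsive HSP90, averaged 88.8 ± 32.3 CPM in kidney and 24.1 ± 17.0 CPM in liver, a log2 fold change of 1.89 ± 0.23 (adjusted p = 5.97e-08, edgeR). Hsp90ab1 averaged 783 ± 149 CPM in kidney and 441 ± 76.0 CPM in liver, without overlap (log2 fold change 0.82 ± 0.11). Hsph1, an HSP110 that acts as a nucleotide exchange factor, averaged 171 ± 47.6 CPM in kidney and 53.3 ± 33.3 CPM in liver (log2 fold change 1.67 ± 0.25). The other members that were higher in kidney were Hspa1a at 2.40 ± 0.61, the HSP40 genes Dnajb1 at 0.66 ± 0.18 and Dnaja1 at 0.39 ± 0.12, the factor Hsf1 at 0.38 ± 0.11 and the mitochondrial chaperonin Hspd1 at 0.35 ± 0.08 on the log2 scale.

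Both small heat shock genes were lower in kidney. Hspb8 lay between 0 and 4.57 CPM in the 12 kidneys and between 249 and 667 CPM in the 12 livers, which was the largest difference of all 42 members, with a log2 fold change of -7.24 ± 0.23 (adjusted p = 1.64e-19, edgeR). Hspb1 averaged 7.96 ± 9.46 CPM in kidney and 47.7 ± 21.3 CPM in liver, a log2 fold change of -2.74 ± 0.29. Hspa9, the mitochondrial HSP70, averaged 156 ± 16.2 CPM in kidney and 367 ± 48.6 CPM in liver, without overlap. The remaining lower members were Ahsa1, an activator of the HSP90 ATPase, at -1.42 ± 0.10, the chaperonin subunit Tcp1 at -1.06 ± 0.09, Hspa4 at -0.76 ± 0.08, Bag3 at -0.67 ± 0.23 and Hspe1 at -0.39 ± 0.17 on the log2 scale. Cct2, another subunit of the same chaperonin as Tcp1, stood at 0.01 ± 0.06, with a 95% interval between -0.11 and 0.13. Stip1, Hspa8 and Hspa1b also did not pass. With the size factors of DESeq2's method in place of TMM the median of all genes moved to 0.16, and the call of Hspe1 was lost (adjusted p = 0.143, edgeR), as it was without most single libraries (adjusted p up to 0.148, without enzastaurin liver replicate 4). Under that scaling every other call of the members kept its side and sign.

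A second list of 60 further genes of the ER pathway, of which 59 were found and 56 tested, had 10 higher and 38 lower in kidney, with a median log2 fold change of -0.72. The matching list of 60 cytosolic and mitochondrial co-chaperones, chaperonin subunits and proteases, of which 59 were found and 55 tested, had 18 higher and 29 lower, with a median of -0.35.

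In kidney each compound was set against the 6 control libraries, and all 30 libraries shared 1 fit. No ER member passed the test with any of the 6 compounds, and in the cytosolic and mitochondrial set 3 members passed with AZD8055 and 0 with any other compound. The 6 comparisons share their controls, so a high or low control library enters all of them. The summed ER set was 2664 ± 189 CPM with AS-703026, 2704 ± 328 CPM with ascorbyl-palmitate, 2958 ± 404 CPM with AZD8055, 3143 ± 216 CPM with enzastaurin, 2953 ± 382 CPM with GDC-0941 and 2956 ± 209 CPM with KU0063794, against 3132 ± 208 CPM in controls. The summed cytosolic and mitochondrial set ran between 2645 ± 260 CPM with ascorbyl-palmitate and 3338 ± 554 CPM with enzastaurin, against 3170 ± 293 CPM in controls. The median log2 fold change of the ER and of the cytosolic and mitochondrial set was -0.23 and -0.16 with AS-703026, -0.19 and -0.26 with ascorbyl-palmitate, -0.09 and 0.04 with AZD8055, -0.04 and 0.02 with enzastaurin, -0.04 and -0.09 with GDC-0941 and -0.11 and -0.08 with KU0063794, while the median over all genes tested lay between -0.02 and 0.03.

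**Figure D2:**
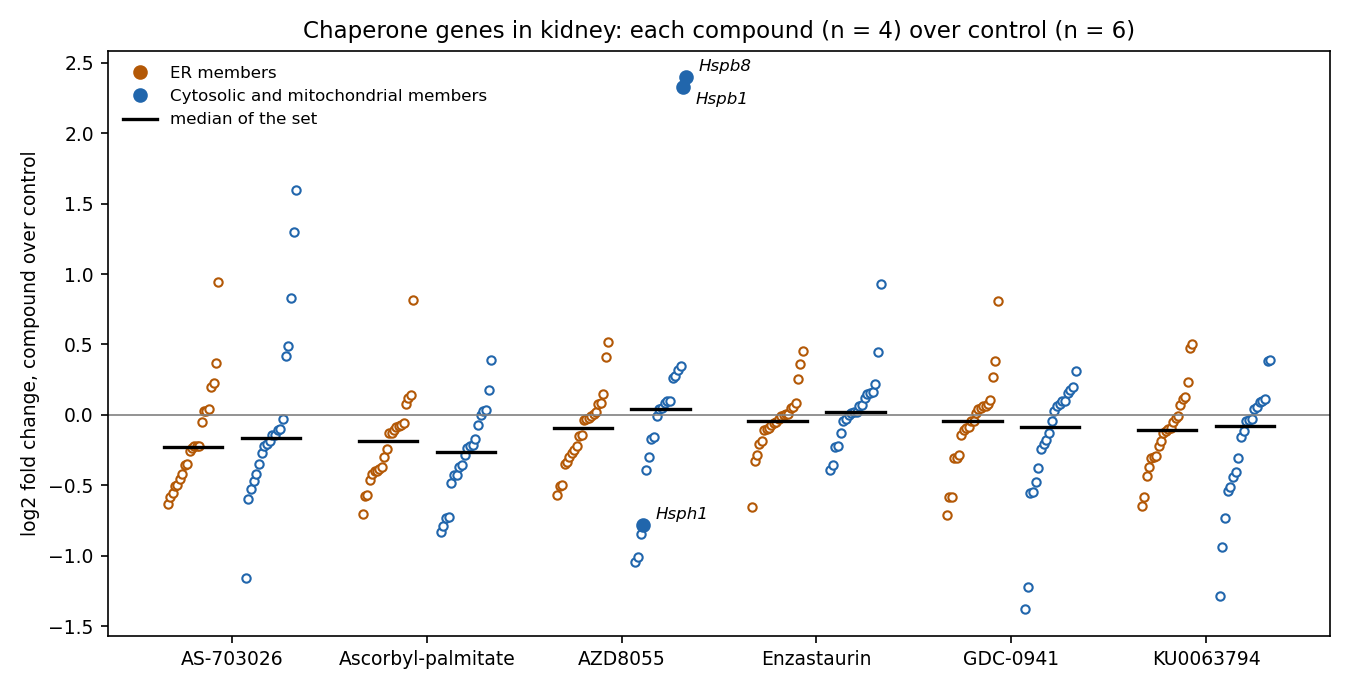
Log2 fold change of each compound (n = 4) over control (n = 6) for every member in kidney, with ER members left and cytosolic and mitochondrial members right of each tick; large filled points passed an adjusted p of 0.05, and black bars are set medians. Hspb8 and Hspb1 at 2.40 and 2.33 and Hsph1 at -0.78, all with AZD8055, are the filled points.

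With AZD8055, 0 of 22 ER members were called by edgeR, and 2 had an unadjusted p below 0.05, beside 20.0% of all genes. DESeq2 called 1, Sel1l, beside 5.36%, and limma voom called 0, beside 2.01%. In the same comparison 3 of 20 cytosolic and mitochondrial members were called, beside 5.46% of all 11719 genes tested (3.77% higher, 1.69% lower). Hspb1, a small heat shock protein that binds unfolded client proteins and actin, had 8.54, 11.8, 7.94 and 119 CPM with AZD8055, against a lowest, median and highest of 4.07, 6.82 and 10.4 CPM in controls. Hspb8 had 2.99, 4.88, 5.50 and 36.5 CPM with AZD8055, against 0.579, 2.54 and 3.29 CPM in controls. In both genes 1 library, replicate 4, was far above the other AZD8055 libraries, and the groups overlapped. The log2 fold changes were 2.33 ± 0.62 for Hspb1 (adjusted p = 0.0256, edgeR) and 2.40 ± 0.63 for Hspb8 (adjusted p = 0.0234, edgeR).

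Replicate 4 is the library with 41630 CPM of adipocyte transcripts. Without it the log2 fold changes were 0.34 for Hspb1 (adjusted p = 0.867, edgeR) and 0.88 for Hspb8 (adjusted p = 0.605, edgeR), and 0 of 20 members were called, beside 0.204% of all genes in place of 5.46%. With the AZD8055 and control libraries fitted alone, 0 of 9476 genes were called. The call of Hspb8 was also lost without control replicate 4 or 5 (adjusted p = 0.0525 and 0.0682, edgeR), and that of Hspb1 without control replicate 3 or 4 (adjusted p = 0.0595 and 0.0635, edgeR). Hspb1 was also high in AS-703026 replicate 4, at 47.8 CPM, the library with 5634 CPM of inner-medulla transcripts, and stood at 15.1 and 13.1 CPM in ascorbyl-palmitate replicates 1 and 3, where that list summed to 1073 and 832 CPM. The part of these transcripts in the Hspb1 values was not tested.

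Hsph1 was lower with AZD8055 than in controls, and its mean also lay below the control mean with every other compound. It had 222, 224, 161 and 117 CPM with AZD8055, against 248, 289 and 432 CPM as lowest, median and highest in controls. Every AZD8055 library lay below every control, and the log2 fold change was -0.78 ± 0.22 (adjusted p = 0.0335, edgeR). Without replicate 4 it was -0.63 (adjusted p = 0.202, edgeR), and without control replicate 5, the highest control, it was -0.66 (adjusted p = 0.098, edgeR). The call of Hsph1 was also lost without AZD8055 replicate 3 (adjusted p = 0.0818) or control replicate 3 or 4 (adjusted p = 0.0535 and 0.055, edgeR). DESeq2 called the same 3 members, and limma voom called 0. The highest library was 209 CPM with ascorbyl-palmitate and 225 CPM with KU0063794, also below the controls, where the log2 fold changes were -0.72 ± 0.22 (adjusted p = 0.137, edgeR) and -0.74 ± 0.22 (adjusted p = 0.235, edgeR). Hsph1 averaged 205.5 CPM with AS-703026, 212.5 CPM with GDC-0941 and 239 CPM with enzastaurin, against 311 CPM in controls.

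**Figure D3:**
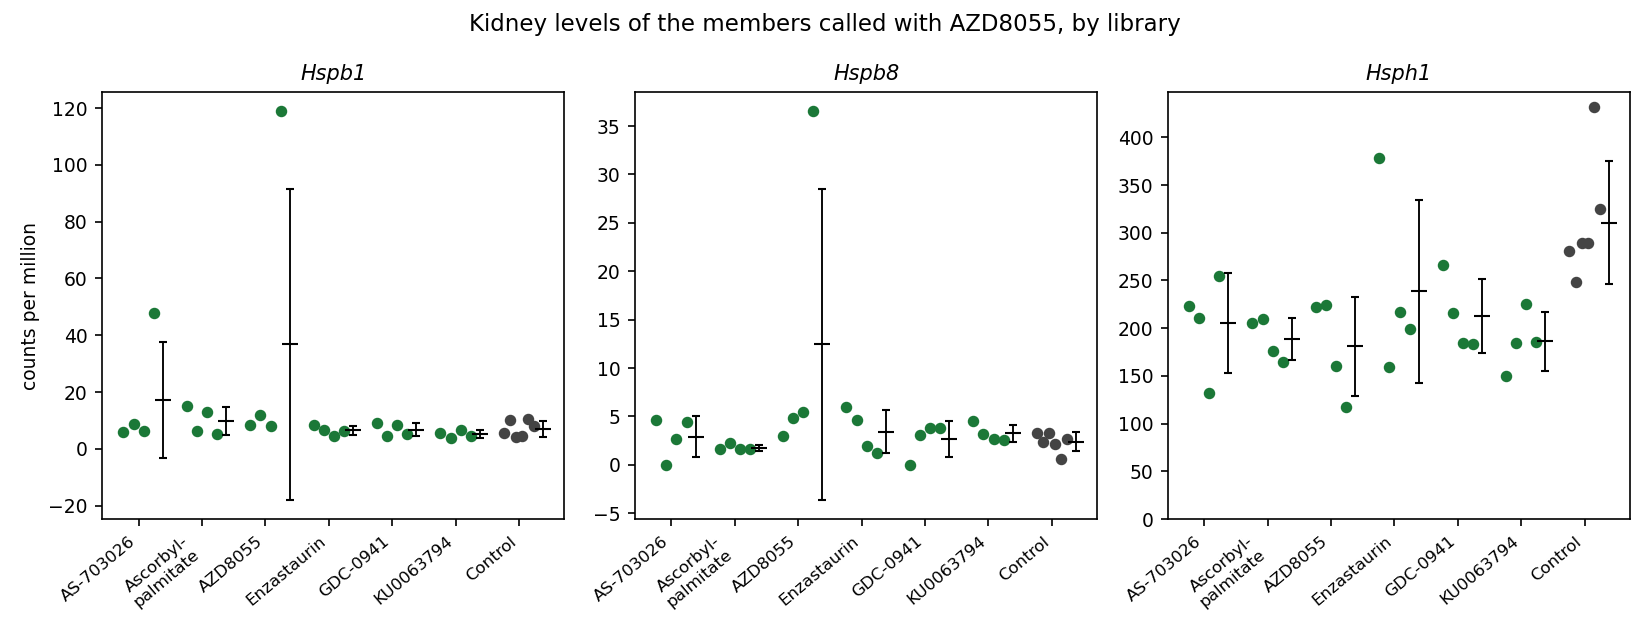
Levels in CPM of Hspb1, Hspb8 and Hsph1 in each kidney library (points), with the mean and SD of each group beside them; controls are grey and stand last. For Hspb1 and Hspb8 the highest AZD8055 point, at 119 and 36.5 CPM, is replicate 4, and for Hsph1 the controls lie between 248 and 432 CPM, above all 4 AZD8055 libraries.

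With AS-703026, 0 of 22 ER and 0 of 20 cytosolic and mitochondrial members were called by edgeR, beside 0.922% of all genes; at an unadjusted p below 0.05 the counts were 9 and 4, beside 15.1% of all genes. DESeq2 called 2 and 1, beside 2.3% of all genes, and limma voom called 0 and 1, beside 1.6%. Hspa5 had 245, 181, 221 and 257 CPM with AS-703026, against 299, 308 and 406 CPM as lowest, median and highest in controls. The groups did not overlap, but the log2 fold change of -0.56 ± 0.17 missed the threshold (adjusted p = 0.105, edgeR); it was 1 of the 2 ER members that DESeq2 called, with Sel1l (adjusted p = 0.0386 in DESeq2). Hspa4, an HSP110 relative, had 71.0, 63.7, 61.5 and 73.8 CPM with AS-703026, against 81.9, 102 and 109.8 CPM in controls, a log2 fold change of -0.52 ± 0.14 (adjusted p = 0.0615, edgeR), again without overlap. Hspa4 passed without AZD8055 replicate 4, control replicate 2 or enzastaurin replicate 1 (adjusted p = 0.0322, 0.0329 and 0.0444, edgeR). Sel1l had 174, 187, 128 and 148 CPM with AS-703026, against 167, 232 and 334 CPM in controls, a log2 fold change of -0.58 ± 0.17 (adjusted p = 0.0866, edgeR; 0.038 without control replicate 2). Hspd1 averaged 112 ± 15.9 CPM with AS-703026 (SD, n = 4) and 149.7 ± 19.4 CPM in controls (SD, n = 6), a log2 fold change of -0.42 ± 0.13 (adjusted p = 0.0907, edgeR). All AS-703026 kidneys lay above all controls for the inner-medulla list, whose part in these values was not tested. Satellite-like transcripts took up to 29.0% of the counts in this group. With their share as a covariate edgeR called 0.171% of all genes, in place of 0.922%.

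With ascorbyl-palmitate no member was called by edgeR, beside 0.0427% of all genes; 6 ER and 6 cytosolic and mitochondrial members had an unadjusted p below 0.05, beside 12.5% of all genes. DESeq2 called 1 and 0, beside 1.33%, and limma voom called 1 and 1, beside 2.62%. Sel1l came nearest, with 126, 177, 140.4 and 139 CPM under ascorbyl-palmitate, against 167, 232 and 334 CPM in controls. Its log2 fold change was -0.70 ± 0.17 (adjusted p = 0.0679, edgeR; 0.0117 in DESeq2), and without control replicate 2, the lowest control, it was -0.76 (adjusted p = 0.0226, edgeR). Hsp90aa1 stood at -0.79 ± 0.26 (adjusted p = 0.179, edgeR).

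The other kidney comparisons gave no calls among the members by edgeR. With GDC-0941 the share of all genes called was 0.137%. At an unadjusted p below 0.05 there were 2 ER and 5 cytosolic and mitochondrial members, beside 13.1% of all genes, DESeq2 called 1 and 0, beside 1.58%, and limma voom called 0 of either set, beside 0.853%. Sel1l had the smallest p among them, with 164, 179, 109 and 182 CPM under GDC-0941 against the same controls, a log2 fold change of -0.58 ± 0.17 (adjusted p = 0.136, edgeR; 0.0466 without control replicate 2). With KU0063794 the share of all genes called was 0.0427%. At an unadjusted p below 0.05 there were 1 ER and 4 cytosolic and mitochondrial members, beside 9.75% of all genes, DESeq2 called 0 of either set, beside 0.546%, and limma voom called 0 and 1, which was Hsph1, beside 2.92%. With enzastaurin the share of all genes called was 0.0%, 0 members of either set had an unadjusted p below 0.05 beside 7.81% of all genes, and neither DESeq2 nor limma voom called any member. Hsph1 had the smallest p with enzastaurin, at 378, 159.7, 217 and 199 CPM (log2 fold change -0.39 ± 0.22, adjusted p = 0.672, edgeR).

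For Hspa5 the interval around each kidney comparison can be set side by side. The 95% interval of the log2 fold change ran between -0.31 and 0.35 with AZD8055, between -0.43 and 0.23 with enzastaurin, between -0.42 and 0.25 with GDC-0941 and between -0.55 and 0.11 with KU0063794. With ascorbyl-palmitate it ran between -0.70 and -0.03, and with AS-703026 between -0.89 and -0.22, before adjustment. A change of Hspa5 as large as the difference between the tissues lies outside all 6 intervals.

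Over the 7 kidney groups at once, the F test called 0 ER members and 1 cytosolic member, Hspb1 (adjusted p = 0.0371, edgeR), beside 2.51% of all genes. Hspa1b (adjusted p = 0.0623), Hspb8 (0.0712) and Sel1l (0.0722) followed. At an unadjusted p below 0.05 there were 3 ER and 9 cytosolic and mitochondrial members, beside 16.3% of all genes, DESeq2 called 1 and 5, beside 4.48%, and limma voom called 0 of either set, beside 0.205%. The F test called 0 members without AZD8055 replicate 4, and likewise without ascorbyl-palmitate replicate 3, enzastaurin replicate 4, control replicate 1, 3, 4 or 5, or any 1 of the GDC-0941 or KU0063794 libraries.

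The mTOR inhibitors were also set against each other, at different doses (20 ppm of AZD8055 and 10 ppm of KU0063794). No member was called by edgeR, beside 0.631% of all genes, which was 0.0% without AZD8055 replicate 4. At an unadjusted p below 0.05 there were 1 ER and 3 cytosolic and mitochondrial members, beside 10.4% of all genes, DESeq2 called 0 and 1, beside 0.196%, and limma voom called 0 of either set and 0.0% of all genes. Hspb1 averaged 36.8 ± 54.7 CPM with AZD8055 and 5.18 ± 1.29 CPM with KU0063794 (SD, n = 4 each), a log2 fold change of 2.84 ± 0.72 (adjusted p = 0.0529, edgeR) that again held the library rich in adipocyte transcripts. It passed without AS-703026 replicate 4 (adjusted p = 0.0305, edgeR) and without AZD8055 replicate 1, 2 or 3 (adjusted p = 0.011, 0.0149 and 0.0113, edgeR), each of which leaves that library in. Hsph1, low with both, stood at -0.05, with a 95% interval between -0.51 and 0.42. Creld2, an ER disulfide isomerase, averaged 21.8 ± 7.43 CPM with AZD8055 and 35.5 ± 7.25 CPM with KU0063794, a log2 fold change of -0.68 ± 0.26 (adjusted p = 0.292, edgeR).

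The 3 liver groups were set against one another. No member was called in any of these comparisons by edgeR. AS-703026 against enzastaurin called 2.96% of all 9490 genes, AS-703026 against GDC-0941 called 3.22%, enzastaurin against GDC-0941 called 0.0%, and the F test over the 3 groups called 3.2%. Satellite-like transcripts differed with these groups, at 0.857% to 1.77% of the counts with AS-703026, 0.124% to 0.602% with enzastaurin and 0.329% to 0.645% with GDC-0941. Of 12 tested, 10 were higher with AS-703026 than with enzastaurin and 7 were higher than with GDC-0941. With their share as a covariate the calls over all genes were 0.0105% for AS-703026 against enzastaurin and 0.232% for AS-703026 against GDC-0941. Every AS-703026 liver had a larger share than every other liver, so the covariate cannot separate that share from the compound. At an unadjusted p below 0.05 the first 2 comparisons had 2 and 1 ER members and 2 and 3 cytosolic and mitochondrial members, beside 16.2% and 16.1% of all genes. Enzastaurin against GDC-0941 had 1 and 0, beside 8.03%, and the F test had 1 and 2, beside 16.8%. DESeq2 called 1 member in all, Hspb8 with AS-703026 against enzastaurin, and limma voom called 0.

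Hspb8 had 530.3, 268, 416 and 361 CPM with AS-703026, 355, 191, 215 and 206 CPM with enzastaurin, and 224, 335, 287 and 296 CPM with GDC-0941. The groups overlapped, and the log2 fold change of AS-703026 over enzastaurin was 0.71 ± 0.22 (adjusted p = 0.104, edgeR; 0.0456 in DESeq2). Without enzastaurin replicate 1, the highest of its group, it was 0.95 (adjusted p = 0.0211, edgeR), and without AS-703026 replicate 2 it was 0.85 (adjusted p = 0.0369, edgeR). Tcp1 had 52.9, 51.7, 65.8 and 53.1 CPM with AS-703026 and 69.8, 68.4, 80.2 and 65.0 CPM with enzastaurin, a log2 fold change of -0.33 ± 0.12 (adjusted p = 0.175, edgeR). Hspb1 had 72.1, 29.9, 65.5 and 19.4 CPM with AS-703026 and 19.6, 29.2, 30.7 and 29.1 CPM with GDC-0941, a log2 fold change of 0.81 ± 0.32 (adjusted p = 0.207, edgeR; 0.0267 without AS-703026 replicate 4). Canx averaged 351 ± 25.9 CPM with AS-703026 and 290.0 ± 28.2 CPM with GDC-0941 (SD, n = 4 each), a log2 fold change of 0.27 ± 0.10 (adjusted p = 0.165, edgeR).

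Whether the differences between compounds were the same in the 2 tissues was tested with the interaction of compound and tissue in the 24 libraries. Without control livers this test cannot show an effect that all these compounds shared in kidney or in liver. The interaction called 0 members of either set by edgeR, DESeq2 and limma voom, beside 0.163%, 1.07% and 0.171% of all 12262 genes. At an unadjusted p below 0.05 there was 1 ER member, Edem1, a lectin that marks glycoproteins for degradation (adjusted p = 0.396, edgeR), and no cytosolic or mitochondrial member.

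For several ER members 2 single livers stood apart from the rest. Hspa5 had 451, 385, 470.2 and 457 CPM with AS-703026, 1212, 436, 509 and 501 CPM with enzastaurin, and 446, 994, 451 and 468 CPM with GDC-0941. Enzastaurin replicate 1 and GDC-0941 replicate 2 were the highest of the 12 livers. The same pair led for Creld2 at 158 and 156 CPM, where the other 10 lay between 40.3 and 68.0 CPM, for Manf at 604 and 441 CPM, where the others lay between 169.5 and 318 CPM, and for Herpud1 at 556 and 271 CPM, where the others lay between 137 and 254 CPM. These 2 livers were singled out after their values were seen, so what follows is a description without a test.

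Both were the highest of the 12 for 7 of 22 ER members (31.8%), namely Hspa5, Hsp90b1, Manf, Creld2, Herpud1, Sel1l and Syvn1, for 1 of 19 cytosolic and mitochondrial members, Hsph1, and for 289 of the 8325 genes of at least 5 CPM on average (3.47%). Enzastaurin replicate 1 lay above the median of the others for 21 of 22 ER members and by over 1.5-fold for 12, and GDC-0941 replicate 2 for 20 and 7. The matching shares of all genes are not given. The rise was not confined to the ER set. The median log2 ratio of the 2 livers to the others was 0.50 for the ER set and 0.35 for the cytosolic and mitochondrial set. It was 0.15 for the second list of ER pathway genes and 0.0 for all genes of at least 5 CPM. The ratios of the 2 livers to the median of the others were 2.67 and 2.19 for Hspa5, 2.93 and 2.89 for Creld2 and 2.60 and 1.94 for Sdf2l1. Among the sensors and factors they were 0.80 and 1.07 for Atf6, 1.14 and 0.94 for Ern1 and 1.11 and 1.39 for Xbp1. For Xbp1, GDC-0941 replicate 2 was the highest of the 12 livers, at 310 CPM. Atf4, the factor downstream of PERK, was at 0.88 and 0.83. A list of 10 transcripts of pancreatic acinar cells, which are rich in these chaperones, summed to between 22.7 and 96.6 CPM over the livers. The range was 88.9 to 96.6 CPM with enzastaurin and 64.9 to 95.3 CPM with GDC-0941. Cela1 gave between 21.9 and 96.0 CPM over the livers. Of other acinar enzymes, Pnlip and Ctrb1 were at 0, Prss2 reached 0.237 CPM and Cpa1 reached 1.04 CPM. The part of such cells in the 2 livers was not tested.

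**Figure D4:**
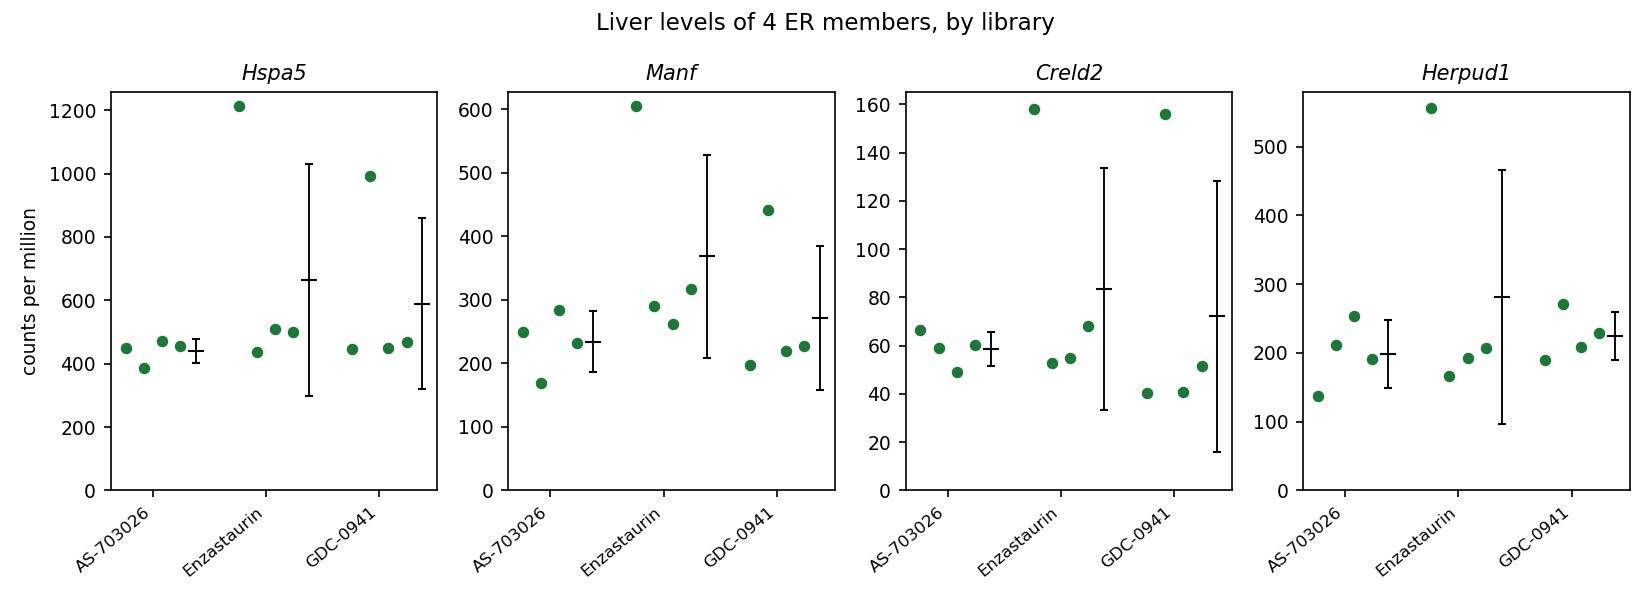
Levels in CPM of the ER members Hspa5, Manf, Creld2 and Herpud1 in each of the 12 liver libraries (points), with the mean and SD of each group beside them. In every panel 1 enzastaurin library (replicate 1) and 1 GDC-0941 library (replicate 2) lie above all others, as with Hspa5 at 1212 and 994 CPM against at most 509 CPM.

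The inducible HSP70 genes also moved library by library. Hspa1b had 107, 56.0, 23.0 and 358 CPM in the AS-703026 kidneys and 302, 19.4, 18.6 and 27.6 CPM in the enzastaurin kidneys, against 19.9, 40.8 and 77.5 CPM as lowest, median and highest in controls. Hspa1a was high in the same libraries, at 49.3 CPM in AS-703026 replicate 4 and 59.6 CPM in enzastaurin replicate 1, against at most 20.0 CPM in controls. In liver Hspa1b had 254, 10.9, 74.0 and 11.8 CPM with AS-703026, 155, 9.94, 21.1 and 14.1 CPM with enzastaurin and at most 23.7 CPM with GDC-0941. No group was uniformly high, and the log2 fold change of Hspa1b with AS-703026 over control in kidney was 1.599 ± 0.65 (adjusted p = 0.226, edgeR). AS-703026 kidney replicate 4 is the library with the inner-medulla transcripts, whose part in these values was not tested.

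Hspa8, the constitutive HSP70, fell into separate ranges in every group. In 25 libraries it lay between 0.854 and 13.2 CPM and in the other 17 between 41.3 and 94.9 CPM, with none between. Each of the 10 groups held 1 or 2 libraries of the higher range, in both tissues, so the split did not follow compound or tissue. The cause of the split between libraries was not tested. The gene has near-identical copies: 81.8% of the 50-base words in the last 500 bases of its transcript also occur in 11 other annotated genes. Reads that match several genes may be dropped or shared by the counting, so the level of Hspa8 is uncertain, and the counts of the 9 copies that are in the table summed to at most 5.50 CPM in any library. The same holds in part for Hspe1 (53.2% of words, 6 other genes), Ahsa1 (39.5%, 1 gene) and Hspb1 (16.0%, 1 gene); Hsp90ab1 had 7.8% and Hsp90b1 4.2%, and the other 36 members had none.

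**Figure D5:**
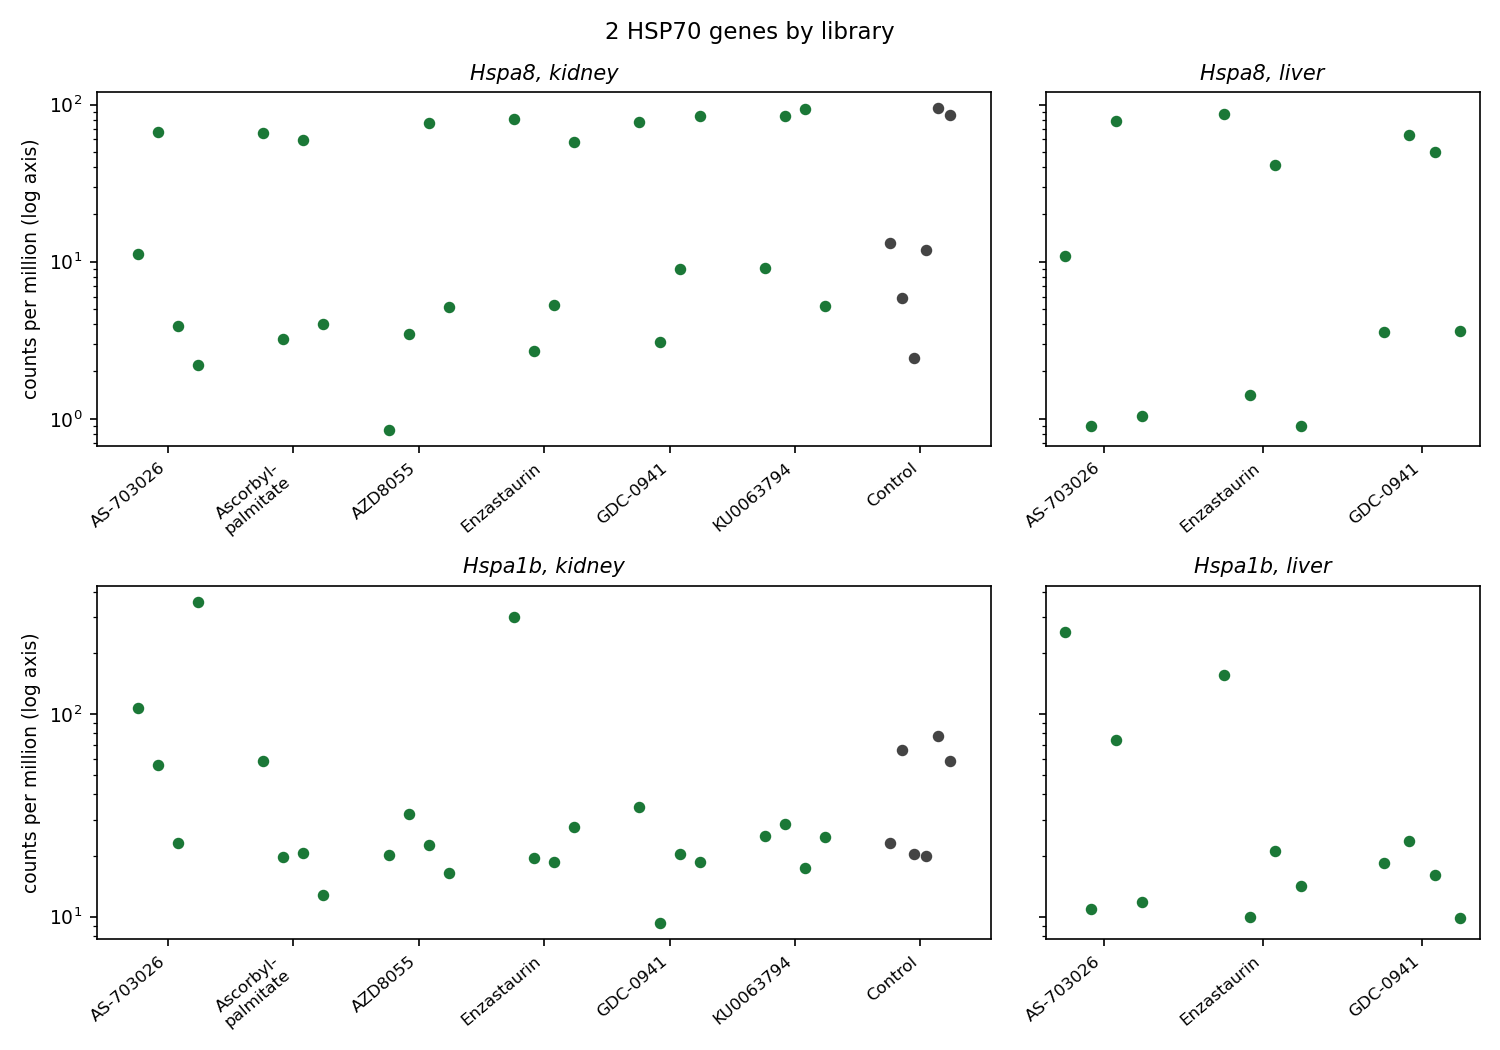
Levels in CPM, on a log axis, of Hspa8 (top) and Hspa1b (bottom) in each kidney library (left) and liver library (right), by group. Hspa8 points lie at or below 13.2 CPM or at or above 41.3 CPM in every group, and Hspa1b is high in single libraries, up to 358 CPM in kidney and 254 CPM in liver.

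Pairs of members (5 in each tissue) were tested for moving together within groups, on log2(CPM + 1) values with the group means removed, by a permutation test within groups and with p-values adjusted over 10 relations. Hspa1a and Hspa1b correlated in kidney (n = 30), with r = 0.89 and rho = 0.81 (adjusted permutation p = 0.0004 and 0.0025), and r = 0.80 without the 2 libraries farthest from the median of Hspa1a. They correlated in liver (n = 12), with r = 0.82 and rho = 0.91 (adjusted permutation p = 0.0037 and 0.0069), and r = 0.68 without 2 libraries. Hspa5 and Hsp90b1, the HSP70 and HSP90 of the ER, had r = 0.44 in kidney (adjusted permutation p = 0.0332) and rho = 0.44 (adjusted permutation p = 0.0613). In liver they had r = 0.80 (adjusted permutation p = 0.0706), which was 0.35 without the 2 farthest libraries and so rested on them. Hsp90aa1 and Hsph1 had r = 0.66 in liver (adjusted permutation p = 0.0332) and rho = 0.62 (adjusted permutation p = 0.0871), and r = 0.30 in kidney (adjusted permutation p = 0.242). Sdf2l1 and Creld2 had r = 0.17 in kidney (adjusted permutation p = 0.479) and 0.71 in liver (adjusted permutation p = 0.0676). Hspd1 and Hspe1, which share the promoter stretch shown above, had r = -0.03 in kidney (adjusted permutation p = 0.894) and -0.38 in liver (adjusted permutation p = 0.414), with the caveat that part of the Hspe1 reads may match its copies. These pairs share library and depth.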

How the data were processed

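The deposited table holds whole-number read counts per gene for 42 CEL-seq libraries, made by the authors and not normalized. Per the submitters' processing notes, bcl2fastq 1.8.4, Trimmomatic 0.32, STAR 2.5.2b, featureCounts 1.5 and the mm10 build were used; no source used here gives their settings or says if molecular identifiers were collapsed. Reads that match near-identical copies can therefore be lost or shared.

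Kidney, liver and the 24 libraries of the 3 shared compounds were each filtered on low counts with filterByExpr, scaled by TMM and fitted by edgeR's quasi-likelihood test (edgeR 4.0.16, R 4.3.3), with p-values adjusted by Benjamini-Hochberg over all genes tested. CPM values are scaled within each of these fits, so kidney and liver levels are set side by side only from the joint one. DESeq2 1.42.0, limma 3.58.1 (voom with sample weights), RLE scaling, no filter, a replicate block, a covariate for satellite-like counts, the 2 groups alone and leaving out single libraries were alternatives. Correlations used a pseudocount of 1 CPM and 100000 permutations. The median total count was 2466914. The fits were checked on simulated data.

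The members, lists and tests were chosen with earlier results of these data known. Values are given for members past an adjusted p of 0.05 or, where fewer than 3 passed, for those with the smallest p, for the 3 highest and 3 lowest levels per tissue, for correlated pairs and for family members; up to 4 genes of the further lists are named by smallest p. The 2 livers, the division of Hspa8 and the genes tied to them were chosen after values were seen.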

Additional observations from a re-analysis of the deposited data

Results flagged for a closer look

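In each of the 10 groups every member was examined for 1 library far from the rest, judged by its gap to the nearest library against the range of the group. Of 420 member and group pairs, 42 stood out. The nominal rate of this rule is about 1 in 20. Members measured in the same library are not independent, and no rate over all genes is given. The count is therefore a description and is not set against that rate. Enzastaurin liver replicate 1 held 13 of them, all high: Hspa5 at 1212 CPM, Hsp90b1 at 293 CPM, P4hb at 748.5 CPM, Dnajb11 at 127 CPM, Manf at 604.5 CPM, Creld2 at 158 CPM, Herpud1 at 556 CPM, Hspa1b at 155 CPM, Hsph1 at 110.4 CPM, Hspb8 at 355 CPM, Dnaja1 at 262.5 CPM, Dnajb1 at 44.4 CPM and Ahsa1 at 36.3 CPM. GDC-0941 liver replicate 2 was high for Hspa5 at 994 CPM, Pdia6 at 811 CPM, Manf at 441 CPM, Creld2 at 156 CPM and Hsph1 at 71.4 CPM. Enzastaurin kidney replicate 1 was high for Dnajb9 at 69.0 CPM, Hspa1a at 59.6 CPM, Hspa1b at 302 CPM, Hsp90ab1 at 1441 CPM, Dnaja1 at 417 CPM and Stip1 at 135 CPM; this library also had the highest hepatocyte sum of the kidneys, 4604 CPM, whose part was not tested.

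AZD8055 kidney replicate 4 was high for Hspb1 at 119 CPM and Hspb8 at 36.5 CPM, and AS-703026 kidney replicate 4 for Hspb1 at 47.8 CPM. Hspa8 was high in AS-703026 kidney replicate 2 at 67.0 CPM, AZD8055 kidney replicate 3 at 76.3 CPM and AS-703026 liver replicate 3 at 78.0 CPM. The other high values were Hsf1 in AS-703026 kidney replicate 1 at 30.25 CPM and liver replicate 2 at 13.6 CPM, Hspa1b in ascorbyl-palmitate kidney replicate 1 at 58.2 CPM, Hspb8 in its replicate 2 at 2.26 CPM, Dnajb11 in GDC-0941 kidney replicate 1 at 68.15 CPM, Hsp90aa1 in AS-703026 liver replicate 1 at 59.5 CPM, Tcp1 in AS-703026 liver replicate 3 at 65.8 CPM, Atf6 in enzastaurin liver replicate 4 at 53.6 CPM and Cct2 in GDC-0941 liver replicate 4 at 106.6 CPM. The low values were Pdia3 in GDC-0941 kidney replicate 3 at 36.4 CPM, Hspa9 in ascorbyl-palmitate kidney replicate 4 at 172 CPM and Hspb1 in GDC-0941 liver replicate 1 at 19.6 CPM.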

How the results depend on the processing

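The kidney and liver difference of the ER set kept 22 lower members and a median between -1.38 and -1.22 without any 1 library; with no filter 21 were lower, Canx being lost. The counts of calls between compounds were small and moved with the tool. For ER members, DESeq2 called 2 with AS-703026, 1 each with AZD8055, ascorbyl-palmitate and GDC-0941, and 1 over the 7 kidney groups, limma voom called 1 with ascorbyl-palmitate, and leaving out 1 library gave 0 to 1 in these comparisons. Leaving out the kidney libraries of 5% or more satellite-like counts left 1 AS-703026 library in the fit, so its counts of calls are not given. With no filter the livers gave 4 ER members for AS-703026 against enzastaurin, 1 for enzastaurin against GDC-0941 and 4 over the 3 groups, beside 2.71%, 0.833% and 3.78% of all genes.

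For cytosolic and mitochondrial members with AZD8055, the 2 groups alone and limma voom gave 0, against 3, and leaving out 1 library gave 0 to 3. DESeq2, limma voom and no filter each gave 1 with AS-703026 (0 to 1 without 1 library), beside 2.3%, 1.6% and 0.907% of all genes. For ascorbyl-palmitate and KU0063794 limma voom gave 1 each, beside 2.62% and 2.92%. AZD8055 against KU0063794 gave 1 with DESeq2 and 1 with no filter, beside 0.196% and 1.23% of all genes, and 0 to 1 without 1 library. The 7 kidney groups gave 5 with DESeq2 and 5 with no filter, beside 4.48% and 3.66% of all genes. They gave 0 with limma voom and 0 with the satellite covariate, beside 0.205% and 1.86%, and 0 to 2 without 1 library. In liver, no filter gave 4 and 5 for AS-703026 against enzastaurin and GDC-0941, beside 2.71% and 3.09% of all genes. It gave 1 for enzastaurin against GDC-0941 and 5 over the 3 groups, beside 0.833% and 3.78%. DESeq2 gave 1 for AS-703026 against enzastaurin, beside 4.19%, and leaving out 1 library gave 0 to 1. The interaction gave 3 with no filter, beside 1.54% of all genes. Manf with AS-703026 against enzastaurin in liver turned to 0.04 with the satellite covariate, against -0.64, and the correlation of Hspd1 and Hspe1 in kidney turned to 0.02 without AZD8055 replicate 4, against -0.03. The cause of these changes was not tested.

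With the replicate number as a block, the cytosolic and mitochondrial counts were 0 with AZD8055 and 0 over the 7 kidney groups. Same-numbered libraries of a tissue had a median correlation of 0.00 in kidney over 84 pairs (-0.32 to 0.48). In liver it was -0.03 over 12 pairs (-0.19 to 0.17). These medians cannot settle whether the numbers pair samples, because single pairs ranged widely and kidney was not compared with liver of the same number. Low members such as Sdf2l1, Hspb8 and Syvn1 in kidney are limited by depth.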

Other observations

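Further genes of the same pathways passed the test in some comparisons between compounds. With AZD8055 in kidney 5 of 54 cytosolic and mitochondrial co-chaperones and proteases were called (9.26%), beside 5.46% of all genes: Grpel1, a co-chaperone of mitochondrial HSP70, at a log2 fold change of 0.70 (adjusted p = 0.00811, edgeR), Dnaja3, a mitochondrial J-protein, at 0.50 (adjusted p = 0.0315), Trap1, the mitochondrial HSP90, at 0.54 (adjusted p = 0.0328), the mitochondrial protease Lonp1, and Pdcl at -0.76 (adjusted p = 0.0299, edgeR). In the ER list 1 of 52 was called (1.92%), Derl1, a channel factor of ER-associated degradation. Without AZD8055 replicate 4, the library rich in adipocyte transcripts, 0.204% of all genes were called; the part of that library in the values of these 6 genes was not tested. With AS-703026 in kidney the small heat shock gene Cryab had 74.3, 179, 368 and 2750 CPM, against 45.0 to 66.7 CPM in controls. The log2 fold change was 3.92 (adjusted p = 0.0203, edgeR). The highest library is the one with 5634 CPM of inner-medulla transcripts, whose part was not tested. The largest log2 fold change of the inner-medulla list was the same 3.924, so that sum appears to hold Cryab itself. It is then not a separate measure beside Cryab.

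In liver AS-703026 against GDC-0941 called 1 of 53 genes of the cytosolic list (1.89%) and 2 of 55 of the ER list (3.64%), beside 3.22% of all genes. They were Hspb6, a small heat shock gene, at -0.80 (adjusted p = 0.0414), Pdia5, a disulfide isomerase, at 0.77 (adjusted p = 0.0176), and Creb3l3, a hepatic ER-bound transcription factor, at -0.52 (adjusted p = 0.0254, edgeR). AS-703026 against enzastaurin called 1 of 53 (1.89%) and 1 of 55 (1.82%), beside 2.96% of all genes, with Hspb6 at -0.86 (adjusted p = 0.0305) and Pdia5 at 0.67 (adjusted p = 0.041, edgeR). Satellite-like transcripts were higher with AS-703026 in both comparisons, and with their share as a covariate 22 and 1 genes of all were called against GDC-0941 and enzastaurin. That share and the compound cannot be told apart in these livers. The part of the share in the values of these genes was not tested.

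The 2 livers with high ER members were also the highest of the 12 for genes outside the lists, chosen after their values were seen. Enzastaurin replicate 1 and GDC-0941 replicate 2 had 491 and 598 CPM of Thrsp, a lipogenic gene, against 96.8 to 376 CPM in the other 10. Aacs stood at 83.35 and 113 CPM, against 16.7 to 52.5 CPM, and the clock gene Per2 at 10.3 and 17.2 CPM, against 2.56 to 8.64 CPM. Both livers were the highest for 1 of 6 genes of a clock output list. The same count was 0 of 7 for immediate early and handling stress genes, beside 3.47% of all genes of at least 5 CPM.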
